A study of Arabidopsis thaliana with 4 samples.

Results

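WRKY proteins are plant transcription factors that bind a short DNA motif, the W-box, through a domain of a conserved stretch of 7 residues and a zinc finger. Many of them are switched on within minutes to hours of an attack by a pathogen, and others act in leaf senescence, phosphate uptake, seed and trichome development. They act as activators or repressors, often bind the promoters of their own family, and some are phosphorylated by mitogen-activated protein (MAP) kinases or bound by proteins with a VQ motif. The genes described here were the reference genes of the Pfam families whose name contains WRKY, without those also listed in the NB-ARC family, which holds disease resistance proteins. There were 70 such genes among 22263 reference genes with a Pfam family, and 63 of them were listed in the expression table, which holds 23281 features.

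The samples were the aboveground parts of wild-type Col-0 plants of Arabidopsis thaliana with complete rosettes. The plants grew under 16 h of light at 23 °C and 8 h of darkness at 18 °C, and each sample was a pool of plants. Nanopore sequencing of PCR-amplified cDNA (ONT Pc) was carried out on 3 replicates, CTRL1, CTRL2, and CTRL3, and PacBio sequencing on 1 library. No treatment or mutant was included, so the values describe untreated plants of 1 group. In a bulk sample, fewer cells of a type and less RNA per cell cannot be told apart.

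CTRL1 had 8122432 reads on the listed features, CTRL2 7386184, and CTRL3 6835029. Levels are given as CPM, reads per 1000000 reads of the same replicate. A gene with no read could still have a level of up to 3 reads, that is, 0.369 CPM for CTRL1, 0.406 CPM for CTRL2, or 0.439 CPM for CTRL3. The 5 leaf markers, among them the Rubisco small subunit gene RBCS1A, summed to 46713, 40096, and 36725 CPM in CTRL1, CTRL2, and CTRL3. Of the root list, the iron transporter gene IRT1 was listed at 0 in all 3 replicates and CASP1 had at most 2 reads, while the phosphate transporter gene PHT1;4 had 455, 534, and 155 reads, and its source in these samples was not tested. OLEO1 of the seed list had no row and CRA1 had at most 2 reads, and the floral genes AP3, PI, and AG had at most 7 reads in any replicate. The clock-controlled gene GRP7, which encodes an RNA-binding protein, was at 828 CPM in CTRL3, against 100.1 CPM in CTRL1 and 138 CPM in CTRL2. GRP7 was listed because CTRL3 stood apart in it in an earlier reading of these data, so this is not an independent result. The part of this difference in the WRKY values was not tested.

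The binding domains are shown first, because the classes of the family rest on them. Each run below is the coding DNA of the conserved stretch of 7 residues, read in the RefSeq sequence of TAIR10.1 on the coding strand, 5′ to 3′, with the codon of the sixth residue in capitals. WRKY33, which is needed for camalexin synthesis and resistance to Botrytis, has a pair of domains, and both carry a glutamine codon there. WRKY70 and WRKY53 have 1 domain with the glutamine codon, while WRKY50, WRKY51, and WRKY59 carry a lysine codon.
WRKY33, first domain (chr2:16109358-16109378, plus strand): tggagaaagtacggaCAAaaa
WRKY33, second domain (chr2:16109982-16110002, plus strand): tggagaaaatacggcCAGaaa
WRKY70 (chr3:20909760-20909780, minus strand): tggaggaaatatggaCAAaag
WRKY53 (chr4:12393134-12393154, minus strand): tggagaaaatatggtCAAaaa
WRKY50 (chr5:9147579-9147599, minus strand): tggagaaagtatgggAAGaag
WRKY51 (chr5:25908864-25908884, plus strand): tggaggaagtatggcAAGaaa
WRKY59 (chr2:9335762-9335782, minus strand): tggaggaaatacggaAAGaag

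The lysine codon was found in 3 of the 70 genes and the glutamine codon in the others with a domain. WRKY50, which acts with WRKY51 to repress jasmonate signalling when salicylic acid is high, had 3.08, 4.33, and 3.95 CPM in CTRL1, CTRL2, and CTRL3. WRKY51 had 2.59, 5.69, and 2.78 CPM. WRKY59 had 1 read in each of CTRL1 and CTRL3 and 0 in CTRL2.

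The promoters of 4 genes are shown next, because these genes differed between replicates by 2-fold or more with the lowest level in CTRL1, and each holds at least 2 W-boxes. Each run is the 250 bases before the annotated gene start in TAIR10.1, on the strand of the gene, 5′ to 3′, and capitals mark the W-box, TTGACC or TTGACT, or its reverse complement, GGTCAA or AGTCAA. None of the 4 runs overlaps another annotated gene.
WRKY33 (chr2:16107985-16108234, plus strand): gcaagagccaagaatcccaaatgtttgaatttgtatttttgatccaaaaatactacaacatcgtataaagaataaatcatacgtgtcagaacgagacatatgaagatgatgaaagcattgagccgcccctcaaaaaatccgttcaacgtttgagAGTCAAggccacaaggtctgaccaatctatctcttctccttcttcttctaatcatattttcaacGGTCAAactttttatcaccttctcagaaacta
WRKY53 (chr4:12393983-12394232, minus strand): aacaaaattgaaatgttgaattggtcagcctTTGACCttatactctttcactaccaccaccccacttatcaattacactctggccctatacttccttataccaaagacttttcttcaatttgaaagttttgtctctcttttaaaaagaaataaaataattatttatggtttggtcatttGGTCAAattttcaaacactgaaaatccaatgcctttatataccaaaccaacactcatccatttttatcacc
WRKY30 (chr5:8154711-8154960, minus strand): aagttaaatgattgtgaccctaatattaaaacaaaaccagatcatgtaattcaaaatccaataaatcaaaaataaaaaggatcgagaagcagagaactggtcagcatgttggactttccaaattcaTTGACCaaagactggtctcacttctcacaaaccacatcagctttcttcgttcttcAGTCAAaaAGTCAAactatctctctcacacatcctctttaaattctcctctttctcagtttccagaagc
WRKY15 (chr2:9924636-9924885, plus strand): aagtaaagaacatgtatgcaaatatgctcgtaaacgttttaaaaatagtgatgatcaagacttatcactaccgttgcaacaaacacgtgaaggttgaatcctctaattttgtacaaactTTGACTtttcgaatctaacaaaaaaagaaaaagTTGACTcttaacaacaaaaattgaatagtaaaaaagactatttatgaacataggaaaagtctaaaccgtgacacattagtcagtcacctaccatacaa

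The W-boxes of WRKY33 began 96 and 32 bases before the gene start. Those of WRKY53 began at 219 and 71 bases, those of WRKY30 at 124, 69, and 61 bases, and those of WRKY15 at 131 and 98 bases. Searching both strands, 23 of the 70 WRKY genes (32.9%, exact Clopper-Pearson 95% interval 22.1% to 45.1%) held a W-box in these 250 bases, against 7797 of 27444 protein-coding genes (28.4%). At least 2 W-boxes were found in 10 WRKY genes (14.3%), against 1697 protein-coding genes (6.18%). Among WRKY genes with at least 30 reads, 6 of 16 with a range of 2-fold or more held a W-box, against 6 of 23 with a smaller range. These are matches of letters and not binding sites.

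Of the 70 WRKY genes, 50 (71.4%) had a read in every replicate, against 73.7% of the reference genes with a Pfam family. A further 12 had a read in only 1 or 2 replicates and at most 5 reads in all. WRKY67 was listed at 0 in all 3 replicates. WRKY10, which controls seed size in the endosperm, WRKY34, which acts in pollen, WRKY56, WRKY66, WRKY68, WRKY72, and AT3G32090 had no row in the table used here. The median level was 2.39 CPM over the 70 WRKY genes and 5.10 CPM over the reference genes with a Pfam family, with genes that have no row taken as 0. Of the listed WRKY genes, 23 were under 1 CPM, 26 were between 1 and 10 CPM, 13 between 10 and 100 CPM, and 1 above 100 CPM.

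**Figure D1:**
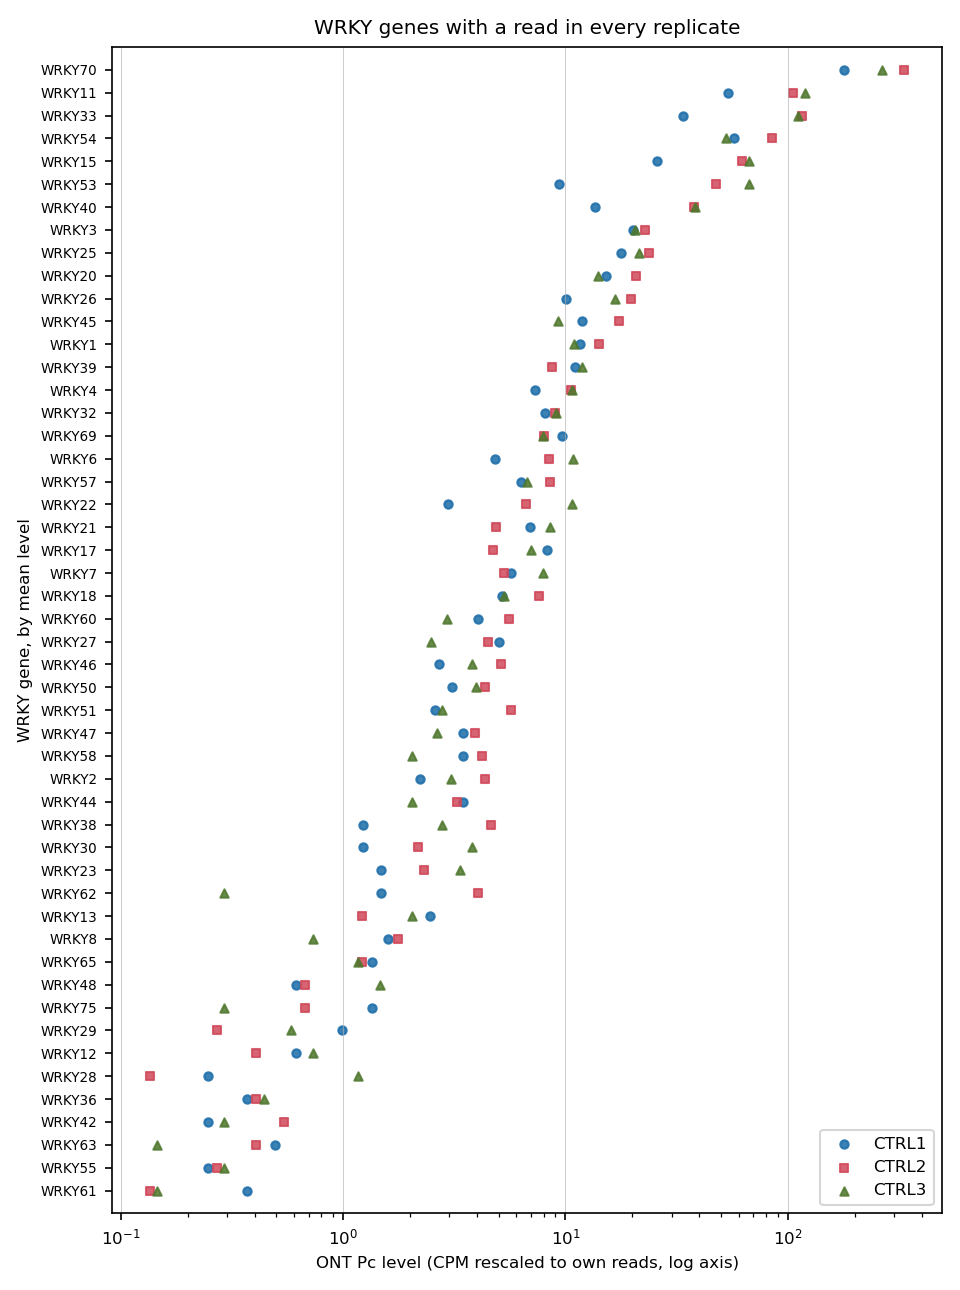
Level of each of the 50 WRKY genes with a read in every replicate, in CPM on a log axis, with 1 point per ONT Pc replicate. WRKY70 lies above all others in each replicate, and the points of WRKY53 spread from 9.36 CPM in CTRL1 to 66.6 CPM in CTRL3.

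The gene with the highest level was WRKY70, which promotes salicylic acid responses, represses jasmonate responses, and delays leaf senescence. WRKY70 (AT3G56400, chr3:20908711-20910623) had 178, 334, and 265 CPM in CTRL1, CTRL2, and CTRL3, a mean of 259 ± 78.0 CPM (SD, n = 3). It took 30.6%, 31.7%, and 27.7% of all WRKY reads in CTRL1, CTRL2, and CTRL3. WRKY54, its closest relative, which acts with it, had 57.1, 84.6, and 52.8 CPM. WRKY54 and WRKY55 lie next to each other on chromosome 2, and WRKY55 had 2 reads in each replicate.

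Levels of different genes were compared per kilobase of the longest transcript annotated in TAIR10.1, and also by CPM. The paper estimated ONT levels as CPM, without a length term. Whether reads depended on transcript length in these data was not tested. WRKY70 had a mean of 176 CPM per kb, followed by WRKY11 with 53.9, WRKY54 with 45.3, WRKY33 with 42.9, WRKY15 with 40.2, WRKY53 with 27.1, WRKY40 with 22.5, WRKY25 with 11.8, WRKY26 with 9.84, and WRKY3 with 9.58 CPM per kb. WRKY70 exceeded WRKY11 by 122 ± 39.1 CPM per kb (SD, n = 3) and was higher in 3 of 3 replicates (p = 0.25 by an exact sign-flip permutation test, two-sided, adjusted p = 0.375 over 9 comparisons). With 3 replicates 0.25 is the smallest p this test can give, so no order could pass 0.05. WRKY33 minus WRKY54 was -2.37 ± 20.6 CPM per kb, with WRKY33 higher in 1 replicate, and WRKY53 minus WRKY40 was 4.63 ± 9.66 CPM per kb, with WRKY53 higher in 2 replicates. These differences were smaller than their spread. The order depended on the unit. By mean CPM, which has no length term, WRKY33 (87.0 CPM) lay above WRKY54 (64.9 CPM), a difference also smaller than its spread. WRKY20 (16.6 CPM), absent from the order per kb given above, lay above WRKY26 (15.5 CPM).

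The whole family took 4719, 7761, and 6547 reads of CTRL1, CTRL2, and CTRL3, that is, 581, 1051, and 958 CPM. CTRL1 was thus the lowest for the family, and CTRL2 the highest. The mean was 863 ± 249 CPM (SD, n = 3), and 604 ± 175 CPM without WRKY70. The 7 genes with the highest CPM held 66.4%, 74.9%, and 75.2% of the family's reads.

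The spread between replicates was wide. Among genes with at least 30 reads in all, 16 of 39 WRKY genes (41.0%) had a highest replicate at least 2-fold above the lowest, against 11.4% of the 16997 features. Of the 39 genes, 11 (28.2%) had such a range with CTRL1 lowest, against 5.3% of all features, 4 had it with CTRL3 lowest, against 2.87%, and 1 had it with CTRL2 lowest, against 3.25%. As shares of the genes that passed, CTRL1 was lowest in 11 of 16 WRKY genes and in 46.4% of 1941 features, and CTRL3 in 4 of 16 WRKY genes and in 25.1% of features. The count depended most on CTRL1: without it 4 of 39 WRKY genes passed, against 6.32% of features. Without CTRL2 13 passed, against 5.8%, and without CTRL3 9 passed, against 5.22%. A range over fewer replicates cannot be wider, so a drop is partly built in. A gene with few reads varies more by counting alone. Among genes with at least 100 reads in all, 7 of 24 WRKY genes passed, against 7.06% of features. The median range was 1.90-fold over the 39 WRKY genes and 1.33-fold over all features. The coefficient of variation exceeded the one expected from read counting in 34 of the 39 genes, with a median of 31.5% against 14.1% from counting. Over all 16997 features the median coefficient of variation was 14.8%. The share of all features above counting was not computed, so the 34 genes are not shown to be particular to the family.

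**Figure D2:**
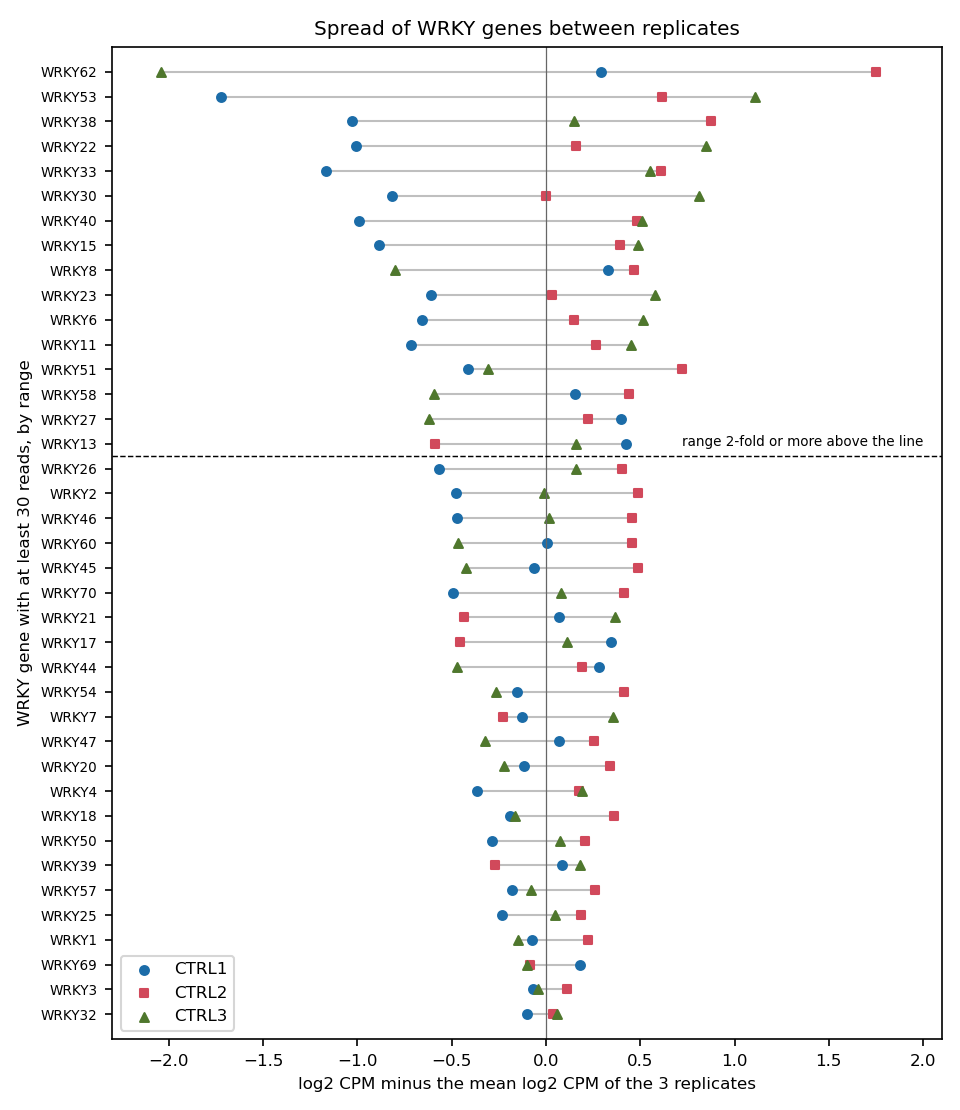
Deviation of each replicate for the 39 WRKY genes with at least 30 reads in all, as log2 CPM minus the gene's mean log2 CPM over the 3 replicates, sorted by range. The 16 genes above the dashed line had a range of 2-fold or more, and CTRL1 (circles) is the leftmost point in 11 of them.

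Taken by pairs, 8 of 39 WRKY genes were at least 2-fold higher in CTRL2 than in CTRL1 (background 3.85%) and 1 was lower (background 1.37%). The median ratio of CTRL2 to CTRL1 was 1.45 over WRKY genes and 1.04 over all features. Between CTRL3 and CTRL1, 10 were higher (background 4.22%) and 3 lower (background 1.58%), with a median ratio of 1.12 against 1.08 over all features. Between CTRL3 and CTRL2, none was higher (background 3.39%) and 4 were lower (background 2.94%), with a median ratio of 0.901 against 1.04 over all features. Fewer WRKY genes thus passed 2-fold between CTRL3 and CTRL2 than between CTRL1 and either of them.

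All 22 genes of the immunity list had a read in every replicate, and 19 had at least 30 reads. Of these 19, 8 had a range of 2-fold or more (11.4% of all features) and 7 had it with CTRL1 lowest (5.3% of all features). Their median ratio was 1.88 for CTRL2 to CTRL1 and 1.40 for CTRL3 to CTRL1, while the 20 WRKY genes with 30 reads outside the list had 1.22 and 1.01. Outside the list, 8 of the 20 had a range of 2-fold or more.

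Reads of WRKY33 (AT2G38470, chr2:16108235-16110766) numbered 275, 856, and 761 for CTRL1, CTRL2, and CTRL3, which is 33.9, 116, and 111 CPM. It was 3.42-fold higher in CTRL2 than in CTRL1 (exact 95% counting interval 2.98 to 3.94) and 3.29-fold higher in CTRL3 than in CTRL1 (2.86 to 3.79). CTRL3 and CTRL2 were close, at a ratio of 0.961 (0.870 to 1.06). On the opposite strand it overlaps AT2G38480 by 26 bases, a gene with a mean of 5.53 CPM, and AT2G08965 by 272 bases, which had no row in the table.

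WRKY53 (AT4G23810, chr4:12392370-12393982), an early promoter of leaf senescence that also acts in basal resistance, had 76, 350, and 455 reads, which is 9.36, 47.4, and 66.6 CPM. It was 5.06-fold higher in CTRL2 than in CTRL1 (3.94 to 6.58) and 7.11-fold higher in CTRL3 than in CTRL1 (5.57 to 9.19). WRKY53 overlaps AT4G23800 on the opposite strand by 341 bases. That gene had 13.8, 9.48, and 17.4 CPM, and whether reads were counted by strand is not given in the sources used here, so part of the reads could belong to either gene.

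WRKY40, a repressor of basal resistance, had 13.5, 37.6, and 38.3 CPM in CTRL1, CTRL2, and CTRL3. WRKY18 and WRKY60, which form complexes with WRKY40, had 5.17, 7.58, and 5.27 CPM and 4.06, 5.55, and 2.93 CPM. The range of WRKY40 was 2.83-fold, that of WRKY18 1.47-fold, and that of WRKY60 1.90-fold, so of this trio WRKY40 passed 2-fold. WRKY40 overlaps AT1G80850 on the opposite strand by 51 bases, and that gene had a mean of 8.86 CPM.

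WRKY11, a repressor of resistance to bacteria, had 53.6, 106, and 120 CPM, a range of 2.24-fold with CTRL1 lowest. WRKY17, its close relative with overlapping function, had 8.25, 4.74, and 7.02 CPM, and there CTRL1 was highest. WRKY22 and WRKY29 act downstream of flagellin perception. WRKY22 had 2.95, 6.63, and 10.7 CPM, a range of 3.61-fold, while WRKY29 had 8, 2, and 4 reads. WRKY38 and WRKY62 are repressors of basal defence induced by salicylic acid. WRKY38 had 10, 34, and 19 reads, and WRKY62 had 12, 30, and 2 reads. Among WRKY genes with a read in every replicate, WRKY62 had the widest range, 13.9-fold, which rested on 2 reads in CTRL3. CTRL2 was highest for both genes.

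WRKY51, given above, was the eighth immunity gene to pass, at 2.20-fold with CTRL1 lowest. The remaining immunity genes had a range under 2-fold or under 30 reads in all. WRKY3 and WRKY4, which act in resistance to necrotrophs, had 20.1, 22.7, and 20.5 CPM and 7.26, 10.6, and 10.7 CPM in CTRL1, CTRL2, and CTRL3. WRKY25, which is related to WRKY33 and also acts in heat tolerance, had 17.7, 23.7, and 21.5 CPM. WRKY46, a relative of WRKY70 and WRKY54, had 2.71, 5.14, and 3.80 CPM. WRKY7, a calmodulin-binding relative of WRKY11, had 5.66, 5.28, and 7.90 CPM. WRKY28, which acts in salicylic acid synthesis, had 2, 1, and 8 reads, and WRKY48, a repressor of basal resistance, had 5, 5, and 10 reads.

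In the leaf senescence list, 3 of the 6 genes with at least 30 reads had a range of 2-fold or more with CTRL1 lowest, against 5.3% of all features. Besides WRKY53 and WRKY22, this was WRKY6, which promotes senescence and represses the phosphate exporter gene PHO1, with 4.80, 8.39, and 10.8 CPM. WRKY57, a repressor of jasmonate-induced senescence, had 6.28, 8.53, and 6.73 CPM. WRKY75, which promotes senescence and acts in phosphate starvation, had 11, 5, and 2 reads.

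In the phosphate list, WRKY6 was the 1 gene of 2 with at least 30 reads that passed 2-fold, against 11.4% of all features. WRKY45, an activator of phosphate uptake, had 11.8, 17.3, and 9.22 CPM. WRKY42, a repressor of PHO1 like WRKY6, had 2, 4, and 2 reads.

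The development list had 9 genes, of which 7 were listed and 4 had at least 30 reads. Of these 4, 2 had a range of 2-fold or more, against 11.4% of all features. WRKY23, which acts in auxin transport in the root, had 1.48, 2.30, and 3.37 CPM, a range of 2.28-fold with CTRL1 lowest. WRKY13, which acts in stem development, had 2.46, 1.22, and 2.05 CPM, a range of 2.02-fold with CTRL2 lowest. WRKY44, known as TTG2 and needed for trichomes and seed coat, had 3.45, 3.25, and 2.05 CPM. WRKY2, which acts in pollen and the zygote, had 2.22, 4.33, and 3.07 CPM. WRKY12, which acts on pith cell walls, had 5, 3, and 5 reads, and WRKY71, which acts in shoot branching, had 0, 0, and 2 reads.

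Of the genes on no list with at least 30 reads, 5 had a range of 2-fold or more, against 11.4% of all features. The others, WRKY1, WRKY20, WRKY21, WRKY26, WRKY32, WRKY39, WRKY47, and WRKY69, did not pass. WRKY15, which acts in responses to salt and oxidative stress, had 25.7, 62.4, and 66.7 CPM, and WRKY30 had 1.23, 2.17, and 3.80 CPM, both with CTRL1 lowest. WRKY8, which acts in salt tolerance, had 13, 13, and 5 reads, WRKY58 28, 31, and 14 reads, and WRKY27 41, 33, and 17 reads, each with CTRL3 lowest. Just inside the 2-fold threshold were WRKY13 at 2.02 and WRKY27 at 2.03, and just outside it WRKY26 at 1.96 and WRKY2 at 1.95. WRKY32 and WRKY3 had the narrowest ranges, 1.12-fold and 1.13-fold.

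The family falls into classes by the number of domains and by the zinc finger. Of the 70 genes, 12 encoded a pair of domains, 44 had 1 domain with a C2H2 finger (cysteines and histidines as zinc ligands), and 13 had 1 domain with a C2HC finger. No domain was found in the protein of AT3G32090. A read in every replicate was found for 11 of the 12 genes with a pair of domains, for 30 of the 44 C2H2 genes, and for 9 of the 13 C2HC genes. Among those with at least 30 reads, a range of 2-fold or more was found in 2 of 11 genes with a pair of domains, in 10 of 21 C2H2 genes, and in 4 of 7 C2HC genes, against 11.4% of all features. The share in the class with a pair of domains lies near that background. The proteins had a median of 500 residues with a pair of domains, of 317.5 in the C2H2 class, and of 294 in the C2HC class.

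The C2HC class, which includes WRKY70, WRKY54, and WRKY53, had the highest summed level per kilobase, at 258 ± 79.6 CPM per kb (SD, n = 3). The C2H2 class had 187 ± 52.2 and the class with a pair of domains 100.3 ± 30.2 CPM per kb. The order rested on WRKY70, without which the C2HC class had 82.0 ± 26.8 CPM per kb, the lowest of the 3 classes. The median gene had 1.94 CPM in the C2HC class, 1.08 CPM in the C2H2 class, and 10.9 CPM in the class with a pair of domains. By CPM, the C2HC class had 252, 483, and 395 CPM in CTRL1, CTRL2, and CTRL3, the C2H2 class 196, 320, and 340 CPM, and the class with a pair of domains 133, 248, and 222 CPM. The C2HC sum exceeded the C2H2 sum by 91.4 ± 62.1 CPM and was higher in 3 of 3 replicates, while without WRKY70 the difference was -167 CPM. All 7 genes that Pfam lists with a plant zinc cluster domain, WRKY7, WRKY11, WRKY15, WRKY17, WRKY21, WRKY39, and WRKY74, were WRKY genes, and they summed to 111, 192, and 222 CPM.

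MAP kinases that act upstream of WRKY proteins, VQ proteins that bind them, and genes known downstream were examined as fixed lists. MPK3, the kinase that phosphorylates WRKY33, had 97.8, 201, and 164 CPM in CTRL1, CTRL2, and CTRL3, a range of 2.06-fold with CTRL1 lowest. It was the 1 kinase of 8 to pass 2-fold, a share near the 11.4% of all features. MPK6, which acts with MPK3, had 32.9, 35.5, and 38.3 CPM, and MPK4, which holds WRKY33 through the VQ protein MKS1, had 40.9, 45.4, and 42.1 CPM. None of the 3 VQ genes passed 2-fold. MKS1 had 12.4, 22.6, and 22.5 CPM, and SIB1, which binds WRKY33, had 177, 280, and 196 CPM. SIB2 had 93.0, 117, and 78.1 CPM, with CTRL3 lowest.

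Of the 11 downstream genes, 7 had at least 30 reads and 6 of these passed 2-fold (11.4% of all features), 1 with CTRL1 lowest (5.3%) and 5 with CTRL3 lowest (2.87%). The gene with CTRL1 lowest was ICS1, which encodes the salicylic acid synthesis enzyme, with 4.31, 10.7, and 7.32 CPM. PAD3, which encodes the last enzyme of camalexin synthesis and is a target of WRKY33, had 3.45, 7.31, and 2.63 CPM. PR1 and PR2, markers of salicylic acid responses, had 49.6, 44.9, and 8.34 CPM and 142, 255, and 81.8 CPM. SAG13, a senescence marker, had 35.3, 34.8, and 8.92 CPM, and the phosphate transporter gene PHT1;4 had 56.0, 72.3, and 22.7 CPM. CTRL3 was thus lowest for PR1, PR2, SAG13, and PHT1;4. It was also lowest for PAD3, but there the ratio of CTRL3 to CTRL1 was 0.764 (exact 95% counting interval 0.398 to 1.43). CTRL1 was lowest for WRKY33, WRKY53, and WRKY40, while WRKY54, WRKY60, and WRKY62 of the immunity list were lowest in CTRL3. Of the 39 WRKY genes with at least 30 reads, CTRL1 was lowest for 22, CTRL3 for 12, and CTRL2 for 5. The same shares over all features were not computed, so these counts are not shown to be particular to the family. PHO1 did not pass 2-fold, with 12.1, 6.90, and 11.0 CPM. FRK1, a marker of flagellin responses, had 0, 3, and 0 reads, and the late senescence marker SAG12 had 0, 1, and 0 reads.

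**Figure D3:**
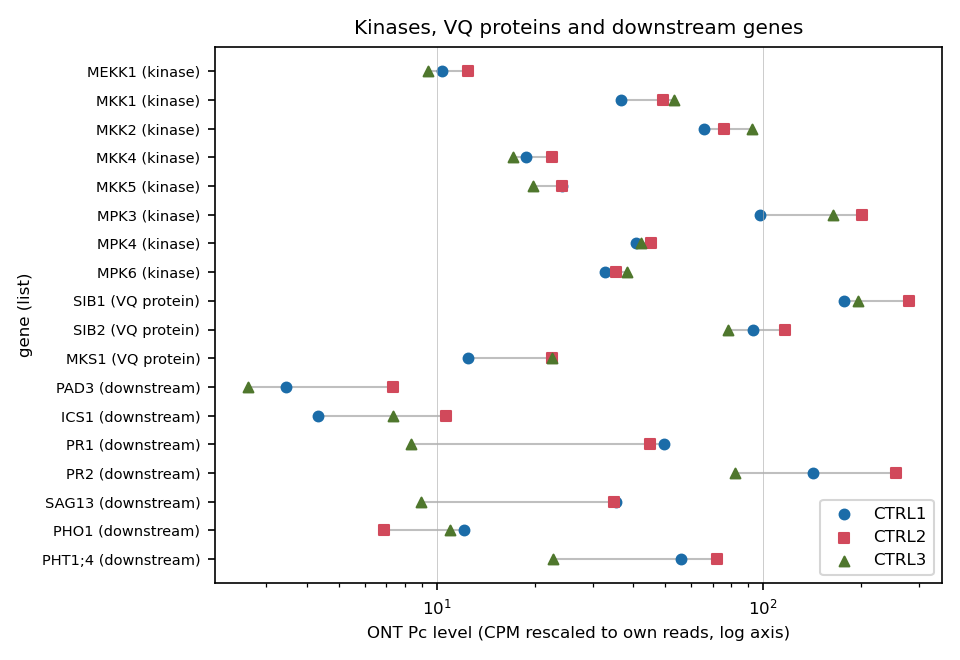
Levels of 8 MAP kinase cascade genes, 3 VQ protein genes, and the 7 downstream genes with at least 30 reads, in CPM on a log axis, with 1 point per ONT Pc replicate. MPK3 and ICS1 are lowest in CTRL1, and PR1, PR2, SAG13, PAD3, and PHT1;4 are lowest in CTRL3.

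The family was compared with 3 other transcription factor families chosen by Pfam name in the same way. A range of 2-fold or more was found in 16 of 39 WRKY genes (41.0%), against 11 of 48 NAC genes (22.9%), 17 of 82 AP2/ERF genes (20.7%), and 9 of 79 bHLH genes (11.4%). CTRL1 was lowest in 11 of the 16 WRKY genes, 9 of the 11 NAC genes, 1 of the 17 AP2/ERF genes, and 2 of the 9 bHLH genes. The difference between families was not tested, since genes are not replicates. Per kilobase, the median gene had 1.31 ± 0.221 CPM per kb for WRKY (SD, n = 3), against 0.324 ± 0.0545 for NAC, 1.48 ± 0.165 for AP2/ERF, and 1.27 ± 0.0222 CPM per kb for bHLH. By CPM, WRKY exceeded NAC in the median gene by 1.63 ± 0.594 CPM, in 3 of 3 replicates, and differed from AP2/ERF and bHLH by less than the spread between replicates. The NAC median was 0.492, 0.542, and 0.439 CPM in CTRL1, CTRL2, and CTRL3, near the level that a gene with no read could have. Among genes with a read in every replicate, WRKY exceeded NAC by 0.797 CPM. The mean gene had 12.3 CPM for WRKY, against 16.1 CPM for AP2/ERF, and WRKY was lower in 3 of 3 replicates. The highest gene took 27.7% to 31.7% of the WRKY reads, against 11.6% to 12.5% for NAC, 8.28% to 15.1% for AP2/ERF, and 12.3% to 12.8% for bHLH.

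**Figure D4:**
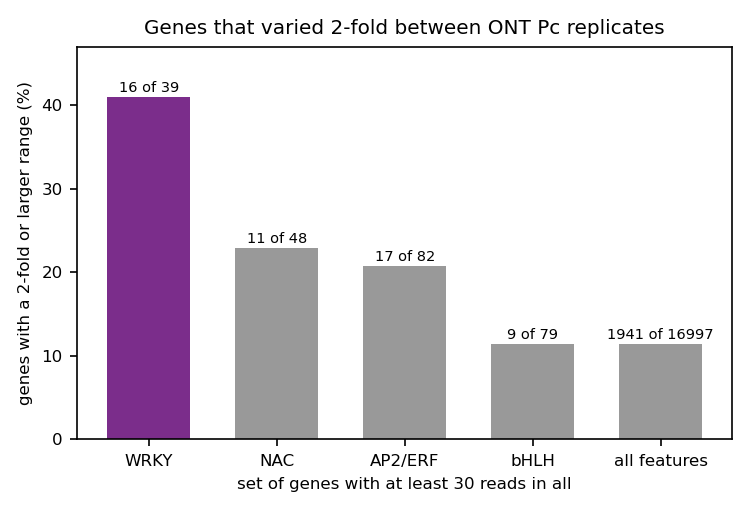
Share of genes whose highest replicate was at least 2-fold above the lowest, in percent, among genes with at least 30 reads in all, for WRKY, 3 other families, and all features. The bar of WRKY stands at 41.0% (16 of 39 genes) and that of all features at 11.4%.

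In the PacBio library, 39 isoforms at 19 loci were listed in the WRKY family. A pair of these loci were also in the NB-ARC family, which left 37 isoforms at 17 loci. Of the 17 loci, 8 had 1 WRKY isoform and 9 had more, with a mean of 2.18 WRKY isoforms. Counting isoforms of any family, 6 of the 17 loci had 1 isoform (35.3%), against 38.9% of all 7368 loci, and the median was 2 isoforms in both. PB.4682 and PB.10743 had 6 WRKY isoforms each, PB.8747 had 4, and PB.3986 had 3. At 4 of the 17 loci other isoforms fell outside the WRKY family, and at PB.9068, 1 of 151 isoforms was a WRKY isoform. Per 100 reference genes, WRKY had 24.3 loci, against 16.5 for NAC, 12.3 for AP2/ERF, and 26.1 for bHLH. Over all families there were 7368 loci beside 22263 reference genes, a higher rate than in any of these families. The list does not pair these loci with reference genes, so the isoforms could not be set beside the ONT Pc levels. In the reference, the 70 genes had 104 transcripts, 49 genes had 1, and WRKY20 had 6.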

How the data were processed

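ONT Pc reads were base-called with Guppy, filtered, made into consensus sequences with Racon, mapped with GMAP, and counted with Salmon by the authors, who deposited CPM per gene. The submitters' processing notes name TAIR10 and minimap2. The annotation version and the use of strand are not given in the sources used here. The deposited divisors of CTRL2 and CTRL3 exceed their own reads, so each column was rescaled to its own sum. Whole reads were recovered for 100% of the values (tolerance 0.01 reads). The PacBio file lists Pfam families with transcript identifiers and holds no measurement. Of the per-sample columns, 0 were left unused.

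Only 1 group was sequenced, so no count test or other test between groups was run. A range, the highest over the lowest replicate, was called at 2-fold among features with at least 30 reads in all. Orders of levels were compared by exact sign-flip permutation tests. Each replicate was a pool of plants, and spreads are those between these pools and their libraries. No molecular identifiers mark the PCR copies, so intervals and floors cover counting error only. Domains were found by translating RefSeq coding sequences of TAIR10.1, and W-boxes in the upstream bases. Transcript lengths came from the same annotation. Reads of genes with similar sequences could be assigned to the wrong gene, so the levels of such genes are uncertain. How alike related genes such as WRKY63, WRKY64, WRKY66, and WRKY67 are was not tested.

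The named genes were the 10 with the highest mean CPM, up to 10 with the widest 2-fold ranges, those with no read, and the role lists. The members and lists were chosen with earlier results of these data known. The procedures were tested on simulated data. Alternatives were the deposited scale, other read minimums, 1.5-fold, left-out replicates, and other motifs and windows. The tools were scipy 1.17.1, pandas 2.3.3, and numpy 2.4.6 in Python 3.11.15, with matplotlib 3.10.9 for plots.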

Additional observations from a re-analysis of the deposited data

Results flagged for a closer look

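A trio of WRKY genes outside the comparisons, because they also encode the NB-ARC domain of disease resistance proteins, had more than 3 reads in every replicate. Reads of WRKY19 numbered 13, 21, and 25 for CTRL1, CTRL2, and CTRL3, a mean of 2.70 CPM. WRKY16 had 39, 55, and 33 reads, a mean of 5.69 CPM. WRKY52, the RRS1 gene of resistance to bacterial wilt, had 39, 47, and 33 reads, a mean of 5.33 CPM.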

How the results depend on the processing

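With CPM as deposited, the median WRKY level was 1.21 CPM in place of 2.39, the family total 458 in place of 863, and the median of the kinase, VQ, and downstream genes 16.0 in place of 24.5 CPM. On that scale 30 of 39 WRKY genes passed 2-fold, but so did 93.9% of all features, since the deposited columns add to different totals. With at least 100 reads in all, 7 of 24 WRKY genes passed (background 7.06%), and at 1.5-fold 26 of 39 passed (background 31.4%). Leaving out 1 replicate gave 4 genes without CTRL1 (background 6.32%), 13 without CTRL2 (background 5.8%), and 9 without CTRL3 (background 5.22%). With all replicates there were 16 (background 11.4%). The share of WRKY genes with a W-box was 51.4% with TTGAC in place of the full motif, against 44.9% of all protein-coding genes, and 52.9% in 500 bases, a window chosen after seeing the data, against 45.2%. The difference in median level between WRKY and AP2/ERF was 0.0991 CPM and changed sign to -1.37 CPM among genes with a read in every replicate and to -0.325 CPM without CTRL2 (range without 1 replicate -0.325 to 0.364). That between WRKY and bHLH was 0.00522 CPM and changed to -2.31 CPM and to -0.398 CPM (range -0.398 to 0.223). Per kb, an alternative added after seeing the data, the difference between WRKY and AP2/ERF was -0.165 CPM per kb. The cause was not tested. Each difference between classes had the same sign in every replicate, so leaving out any 1 replicate could not change it. Without WRKY70, also added after seeing the data, the C2HC sum minus that of the class with a pair of domains was -83.1 CPM in place of 176, and minus that of the C2H2 class -167 in place of 91.4 CPM. No paired analysis was possible because the design holds 1 group of ONT Pc replicates and 1 PacBio library without levels. Genes with few reads, such as the 12 with at most 5 reads in all, could not be ranked at this depth.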
